A study of Mus musculus with 6 samples.

Results

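The genes described here are 10 mouse genes of myoblast fusion and cell contact, chosen by name and found by symbol among the 23231 genes with a count in at least 1 of 6 RNA-Seq libraries. They are the muscle fusogens *Mymk* and *Mymx*, the cadherins *Cdh15* and *Cdh2*, the immunoglobulin-type adhesion genes *Ncam1*, *Jam2* and *Jam3*, the engulfment genes *Dock1* and *Elmo1*, and the ferlin *Myof*. All 10 were among the 14378 genes that passed the low-count filter and were tested. The libraries were made from C2C12, a mouse line labelled as myoblasts that forms multinucleated myotubes when serum is lowered. A Cas9 without nuclease activity joined to the KRAB repressor domain (dCas9-KRAB) was delivered by lentivirus at a multiplicity of infection of 100, from a vector in which the human ubiquitin C promoter drives it together with a puromycin resistance gene. After selection with 2 µg/ml puromycin the cells were kept in 2% horse serum, and polyadenylated RNA was collected on day 5. The control group of 3 libraries carried dCas9-KRAB with no enhancer guide, and the dCas9-KRAB-En5 group of 3 libraries carried dCas9-KRAB with 2 sgRNAs against Myog-En5, a candidate enhancer of *Myog*. Cells of both groups were thus transduced, selected and kept in 2% horse serum alike, and no untransduced library was analysed here. The labels do not say whether the 3 libraries of a group came from separate cultures, so the p-values measure the spread between these libraries, which may be technical.

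Myoblasts fuse in steps. Cells first touch and adhere through cadherins and immunoglobulin-type receptors, actin is then rearranged at the contact by small GTPases and their exchange factors, and the lipid bilayers finally merge. Myomaker, encoded by *Mymk*, and the micropeptide myomixer, encoded by *Mymx*, are the muscle-specific proteins that drive the merger, whereas the adhesion, engulfment and ferlin genes are also used by cells that never fuse. *Myog* encodes myogenin, a transcription factor of the MyoD family that binds E-boxes (CANNTG) and acts during terminal muscle differentiation.

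The targeted site lies upstream of *Myog* on chromosome 1, which holds none of the 10 genes. The guides are shown with their targets because they define the treated group. Each is written 5′ to 3′ with the adjacent NGG motif in capitals. Both match chromosome 1 of GRCm38, at chr1:134283252-134283274 on the positive strand and chr1:134283558-134283580 on the negative strand, which is 6715 and 6409 bp before the annotated start of *Myog* at position 134289989.
Myog-En5-sgRNA1: gaaggggttactgtcggcagAGG
Myog-En5-sgRNA2: gaccggaagattgaaccactGGG

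Promoter windows from RefSeq (GRCm38.p6, 250 bases before to 50 bases after a start) covered 4 of the 10 genes, *Cdh15*, *Dock1*, *Elmo1* with 2 entries, and *Myof*. The *Cdh15* window is printed because it held the most E-box letters of the 5. The capitals mark the letters CANNTG, searched on both strands at once because the motif is its own reverse complement. It lies at chr8:122848124-122848423 on the plus strand.
Cdh15: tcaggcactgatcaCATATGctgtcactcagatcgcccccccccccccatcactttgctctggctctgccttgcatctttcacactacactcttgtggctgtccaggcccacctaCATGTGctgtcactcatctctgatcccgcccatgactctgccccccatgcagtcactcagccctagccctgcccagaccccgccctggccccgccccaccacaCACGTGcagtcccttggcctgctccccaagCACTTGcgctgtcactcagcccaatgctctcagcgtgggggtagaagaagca
The *Cdh15* window held 4 matches, 236, 135, 32 and 2 bases before the RefSeq start used, position 122848374. That start and the whole window lie inside the annotated span of *Cdh15*, which begins at position 122847966. Of 32851 RefSeq promoter windows of this length, 72.3% held at least 1 match and 6.49% held 4 or more. *Dock1* had 1 match, the *Elmo1* entries had 1 and 0, and *Myof* had 0. The letters CAGCTG, present in 16.3% of all windows and contained in CANNTG, occurred in none of the 5. These are matches of letters and not measured binding sites, and they were not compared with expression.

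Depth ranged from 31831093 to 73988425 counts per library, and a count of 0 allows up to 3 counts, which is 0.0405 to 0.0942 CPM, that is, counts scaled to 1000000 per library (counting error only). One library stood apart, since dCas9-KRAB-En5 replicate 3 listed 13991 genes against 17084 to 19395 elsewhere and gave 25.8% of its counts to ribosomal protein genes against 10.8% to 19.4%. Results that rest on this library are given with and without it. In the control group, dCas9-KRAB replicate 1 also differed from replicates 2 and 3. Its ribosomal protein share was 19.4% against 12.0% and 14.9%, and its mitochondrial share 2.57% against 0.922% and 1.10%. The mitochondrial share of dCas9-KRAB-En5 replicate 3 was 2.33%, against 1.15% and 0.696% in replicates 1 and 2. *Myog*, the gene whose enhancer was targeted, was at 1136 ± 80.9 TPM in dCas9-KRAB and 0.126 ± 0.219 TPM in dCas9-KRAB-En5 (SD, n = 3 each), where TPM are counts per gene length scaled to 1000000 per library. Marker genes are counted as called by the cutoffs given below, by which 4.67% of all genes tested were lower and 1.52% higher. Among markers of the labelled cells, 9 of 10 myotube genes were called lower in dCas9-KRAB-En5. All 10 were lower in TPM without overlap between groups, as were 19.7% of all genes tested. Their summed levels were 15300 to 17270 TPM in dCas9-KRAB and 6.31 to 15.7 TPM in dCas9-KRAB-En5. Some of these genes, such as *Myog*, *Actc1* and *Ckm*, passed the low-count filter through the dCas9-KRAB libraries, so their calls describe the list. The myoblast markers summed to 561 to 2028 TPM and 85.9 to 366 TPM, with 4 of 7 tested called lower and none higher. With the replicate block 5 were called lower, which added *Itga7*. With DESeq2, and without dCas9-KRAB-En5 replicate 3, 5 were lower and 1 higher, *Sdc4*. The largest part of the second sum was *Sdc4*, at 37.9 to 56.1 TPM in dCas9-KRAB and 43.0 to 349.7 TPM in dCas9-KRAB-En5. Mean *Myod1* fell from 74.5 to 0.0359 TPM and mean *Myf5* from 3.17 to 0.0264 TPM. Both genes passed the low-count filter through the dCas9-KRAB libraries. The satellite cell gene *Pax7* did not exceed 0.0302 TPM. Fibroblast markers summed to 70.4 to 206 TPM and 20.9 to 39.3 TPM, with 1 of 6 tested called lower (2 with the block, which added *Col1a2*). Macrophage markers were present in every library: 7 of 15 reached 10 TPM in all 6, and the list summed to 1616 to 2927 TPM in dCas9-KRAB and 2191 to 6052 TPM in dCas9-KRAB-En5, while *C1qa*, *C1qb* and *C1qc* stayed at or below 0.982 TPM. In bulk RNA, fewer cells of a type and less RNA per cell cannot be told apart.

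Read counts were compared with edgeR's quasi-likelihood test, dCas9-KRAB-En5 over dCas9-KRAB, with Benjamini-Hochberg adjustment over all 14378 genes. Genes count as called where the adjusted p did not exceed 0.01 and the log2 fold change was 1 or more in size. By this rule 4 of the 10 genes fell (*Mymk*, *Mymx*, *Cdh2* and *Ncam1*) and none rose. Over all genes tested 4.67% fell and 1.52% rose, 671 and 219 genes, which became 516 and 70 with scaling by total counts alone and 1423 and 967 with DESeq2. The median log2 fold change of the 10 was -4.68, and that of all genes tested was 0.08. *Cdh15* and *Jam3* missed the adjusted p and were called when the replicate number entered the model as a block. With that block 6 of the 10 fell, beside 6.79% of all genes, with DESeq2 also 6, beside 8.66%, and without dCas9-KRAB-En5 replicate 3 also 6, beside 14.0%. *Jam2*, *Dock1*, *Elmo1* and *Myof* were not called in any fit made. In TPM, 6 of the 10 were lower in every dCas9-KRAB-En5 library than in any dCas9-KRAB library, which held for 19.7% of all genes tested. None was higher without overlap, against 7.76% of all genes. *Mymk*, *Mymx*, *Cdh15*, *Cdh2* and *Jam3* passed the filter through the dCas9-KRAB libraries, where they were high, so their counts are a description of the list.

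**Figure D1:**
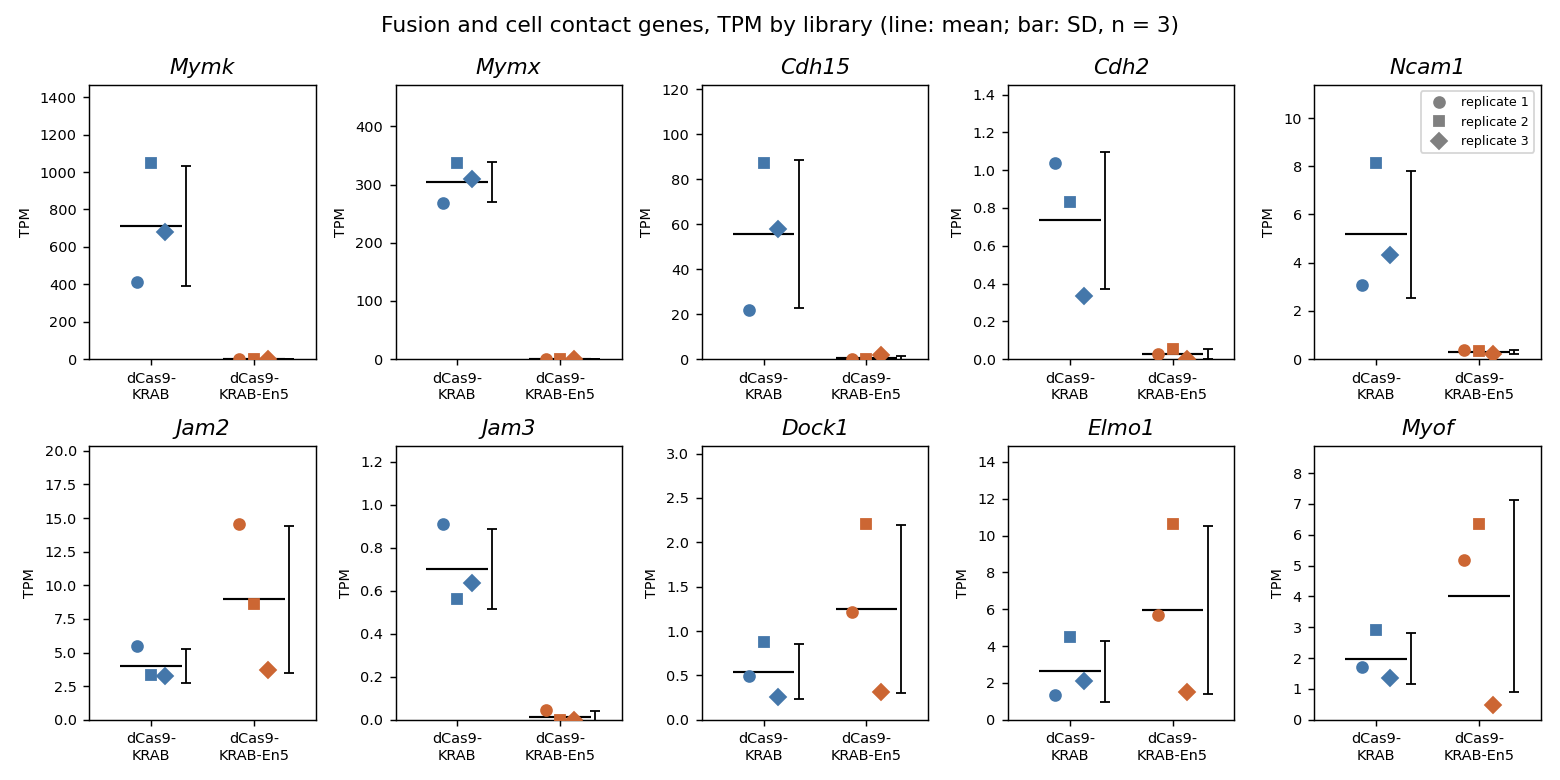
TPM of each of the 10 genes (vertical axis, linear from 0, with its own scale in each panel) in the 3 dCas9-KRAB libraries (blue) and the 3 dCas9-KRAB-En5 libraries (orange). Symbols give the replicate number, horizontal lines the mean and bars the SD (n = 3). *Mymk*, *Mymx*, *Cdh15*, *Cdh2*, *Ncam1* and *Jam3* show no overlap between groups, and *Jam2*, *Dock1*, *Elmo1* and *Myof* overlap, with dCas9-KRAB-En5 replicate 3 the lowest of its group in each of these 4.

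The 2 fusogens were the most abundant of the 10 genes in dCas9-KRAB cells and were nearly undetected in dCas9-KRAB-En5 cells. *Mymk* (chr2:27061636-27072179, minus strand, GRCm38) was at 410.6, 1047 and 678.8 TPM in dCas9-KRAB replicates 1 to 3 and at 0.375, 0.0390 and 0 TPM in dCas9-KRAB-En5 replicates 1 to 3. These levels come from 16837, 59206 and 45930 counts in dCas9-KRAB and from 12, 1 and 0 counts in dCas9-KRAB-En5. The groups did not overlap, and the control libraries themselves spread widely, with replicate 2 the highest and replicate 1 the lowest. Ranked by TPM, *Mymk* stood at place 365, 170 and 255 among the 17084, 17206 and 17515 genes listed in the control libraries. Its mean fell from 712.1 ± 319.4 to 0.138 ± 0.206 TPM (SD, n = 3 each), with a log2 fold change of -12.54 (SE 1.12, edgeR adjusted p = 4.03e-05). Because so few reads were left, a depth-scaled count ratio is the plainer measure. It divides the summed counts of each group by the group's summed depth after scaling by edgeR's TMM factors. For *Mymk* it was 5943, with a counting interval of 3475 to 11160 (exact, 95%).

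*Mymx* (chr17:45600971-45602102, minus strand) followed the same course at a lower level. Its control libraries held 268.5, 336.7 and 310.3 TPM and its dCas9-KRAB-En5 libraries 0.184, 0 and 0 TPM, the latter from 4, 0 and 0 counts. Only dCas9-KRAB-En5 replicate 1 had any *Mymx* read, and the same library had 12 of the 13 *Mymk* reads and all 12 *Myog* reads of its group. The log2 fold change of *Mymx* was -12.36 (SE 0.94, edgeR adjusted p = 1.82e-05), and the depth-scaled count ratio was 5494 (counting interval 2146 to 20160). Both fusogens were called without any 1 of the 6 libraries, with adjusted p from 1.43e-06 to 0.00289 for *Mymk* and from 1.43e-06 to 0.00192 for *Mymx*. Within the control group *Mymk* was the more variable of the pair, and the level of *Mymk* was 1.53, 3.11 and 2.19 times that of *Mymx* in replicates 1 to 3. In dCas9-KRAB-En5 replicate 1 that ratio was 2.04, on 12 and 4 counts.

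The genes with profiles nearest to the fusogens were sarcomere and muscle genes, with 1 exception. Nearness was measured as the Euclidean distance of log2(TPM + 1) over the 6 libraries. For *Mymk* the nearest were *Mybph* (distance 0.549), *Tnni1* (0.858) and *Myl4* (1.04), which encode a myosin-binding protein, slow troponin I and an embryonic and atrial myosin light chain. *Mybph* measured 312, 1110 and 794 TPM in the control libraries, so it shared with *Mymk* the order of the 3 replicates as well as the level. That order is not particular to them. *Actb* (460.0, 1217 and 960.6 TPM) and the macrophage marker *Csf1r* (132.5, 442.6 and 323.1 TPM) had it too, while *Myl4* did not. For *Mymx* they were *Ctrb1* (0.456), a chymotrypsinogen gene, *Ankrd2* (0.818), an ankyrin repeat gene of muscle, and *Tnnt3* (1.43), fast troponin T. *Ctrb1* measured 229, 395 and 384 TPM in the control libraries and 0.269, 0 and 0 TPM in the others.

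The 2 cadherins, calcium-dependent adhesion molecules that hold like cells together, were both lower in dCas9-KRAB-En5 libraries, at very different levels. *Cdh15* (chr8:122847966-122867397, plus strand) encodes M-cadherin, the cadherin of muscle cells and their progenitors, and is the gene whose promoter window with 4 E-box matches is printed above. It was at 21.8, 87.0 and 58.0 TPM in dCas9-KRAB and at 0.0871, 0.0181 and 1.63 TPM in dCas9-KRAB-En5. The control libraries were all higher, but dCas9-KRAB-En5 replicate 3 held 121 *Cdh15* counts where replicates 1 and 2 held 6 and 1. The mean was 55.6 ± 32.7 against 0.577 ± 0.909 TPM (SD, n = 3 each), and the log2 fold change of -5.97 (SE 1.42) had an edgeR adjusted p of 0.0159, outside the cutoff. With the replicate block it was -7.84 (edgeR adjusted p = 0.000205), and without dCas9-KRAB-En5 replicate 3 it was -10.49 (edgeR adjusted p = 3.78e-05). Leaving out dCas9-KRAB-En5 replicate 1 or 2 also brought it inside the cutoff, with edgeR adjusted p of 0.00935 and 0.00836. It stayed outside without dCas9-KRAB replicate 1, 2 or 3, with edgeR adjusted p of 0.0715, 0.0476 and 0.0253. Among the 6 genes with separated groups, the estimate of *Cdh15* moved most when 1 library was left out, and that library was the one that stood apart in ribosomal protein share and genes listed. The part of that difference in the *Cdh15* result was not tested.

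*Cdh2* (chr18:16588877-16809246, minus strand) encodes N-cadherin, shared with neurons and many mesenchymal cells. Its levels were low throughout, at 1.04, 0.831 and 0.335 TPM in dCas9-KRAB and 0.0293, 0.0512 and 0 TPM in dCas9-KRAB-En5. In counts these were 227, 251 and 121 against 5, 7 and 0, so the groups did not overlap. *Cdh2* fell by 5.18 on the log2 scale (SE 0.97, edgeR adjusted p = 0.00509). The call was lost without dCas9-KRAB replicate 1 (edgeR adjusted p = 0.0427) and without dCas9-KRAB replicate 2 (0.0235). In the control libraries M-cadherin was the higher of the pair in every replicate.

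The neural cell adhesion molecule gene *Ncam1* (chr9:49502136-49798925, minus strand), whose product mediates adhesion of neurons and of myoblasts, was lower in all 3 dCas9-KRAB-En5 libraries but remained detected in each. It was at 3.08, 8.13 and 4.32 TPM in dCas9-KRAB and at 0.370, 0.320 and 0.222 TPM in dCas9-KRAB-En5, the latter from 68, 47 and 44 counts. The dCas9-KRAB-En5 libraries lay close together, and none came near the lowest control library. The mean fell from 5.18 ± 2.63 to 0.304 ± 0.0755 TPM (SD, n = 3 each), with a log2 fold change of -4.18 (SE 0.54, edgeR adjusted p = 0.000527). *Ncam1* was called without any 1 of the 6 libraries, with edgeR adjusted p from 0.00021 to 0.00426. It was also the only called gene of the 10 with at least 10 counts in every library, so its fold change does not hang on a group near 0. *Ncam2*, its nearest relative, was listed in no library.

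The junctional adhesion molecules JAM-B and JAM-C, encoded by *Jam2* and *Jam3*, bind each other across cell contacts and are best known from endothelium and from fast muscle of fish, where the pair takes part in fusion. Here the 2 partners had opposite signs. *Jam3* (chr9:27097384-27155421, minus strand) was at 0.910, 0.559 and 0.635 TPM in dCas9-KRAB and at 0.0443, 0 and 0 TPM in dCas9-KRAB-En5. That is 79, 67 and 91 counts against 3, 0 and 0, with no overlap. The depth-scaled count ratio was 50.0, and 3 reads left in the lower group made its counting interval wide (16.9 to 244.4). The log2 fold change of -5.68 (SE 1.24) had an edgeR adjusted p of 0.0103, next to the cutoff, and with the replicate block it was -6.13 (edgeR adjusted p = 0.00715). Without dCas9-KRAB-En5 replicate 1 or 3 it passed, with edgeR adjusted p of 0.00934 and 0.0037. Without dCas9-KRAB-En5 replicate 2 it did not (edgeR adjusted p = 0.0421). Nor did it pass without dCas9-KRAB replicate 1, 2 or 3, with edgeR adjusted p of 0.0602, 0.0344 and 0.0357.

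*Jam2* (chr16:84774123-84825928, plus strand) was at 5.47, 3.33 and 3.25 TPM in dCas9-KRAB and at 14.6, 8.64 and 3.69 TPM in dCas9-KRAB-En5. In TPM, replicates 1 and 2 of dCas9-KRAB-En5 lay above every control library, and replicate 3 lay inside the control range. In CPM scaled by the TMM factors, dCas9-KRAB-En5 replicates 1 to 3 were at 40.01, 20.51 and 21.96. The highest control library, dCas9-KRAB replicate 1, was at 21.5. On that scale replicate 2 of dCas9-KRAB-En5 lay inside the control range, and replicates 1 and 3 lay above it. Which library overlapped the controls thus depended on the scaling. The means were 4.02 ± 1.26 and 8.96 ± 5.45 TPM, and the log2 fold change was 0.86 (SE 0.47, 95% interval -0.17 to 1.89, edgeR adjusted p = 0.229). The interval holds both no change and a rise, so the fit does not settle the direction of *Jam2*.

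The closest relatives of this pair place the values in context. *F11r*, which encodes JAM-A, was at 21.6, 21.3 and 19.1 TPM in dCas9-KRAB and at 3.01, 4.14 and 1.92 TPM in dCas9-KRAB-En5, and fell by 2.97 on the log2 scale (SE 0.44, edgeR adjusted p = 0.00125). Of the summed TPM of *F11r*, *Jam2* and *Jam3*, *Jam2* made up 19.6%, 13.2% and 14.2% in the control libraries and 82.7%, 67.6% and 65.8% in the dCas9-KRAB-En5 libraries. These shares did not overlap between the groups, while the sum went from 23.0 to 27.9 TPM in the first group to 5.61 to 17.6 TPM in the second. *Esam*, another relative, was listed in no library.

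**Figure D2:**
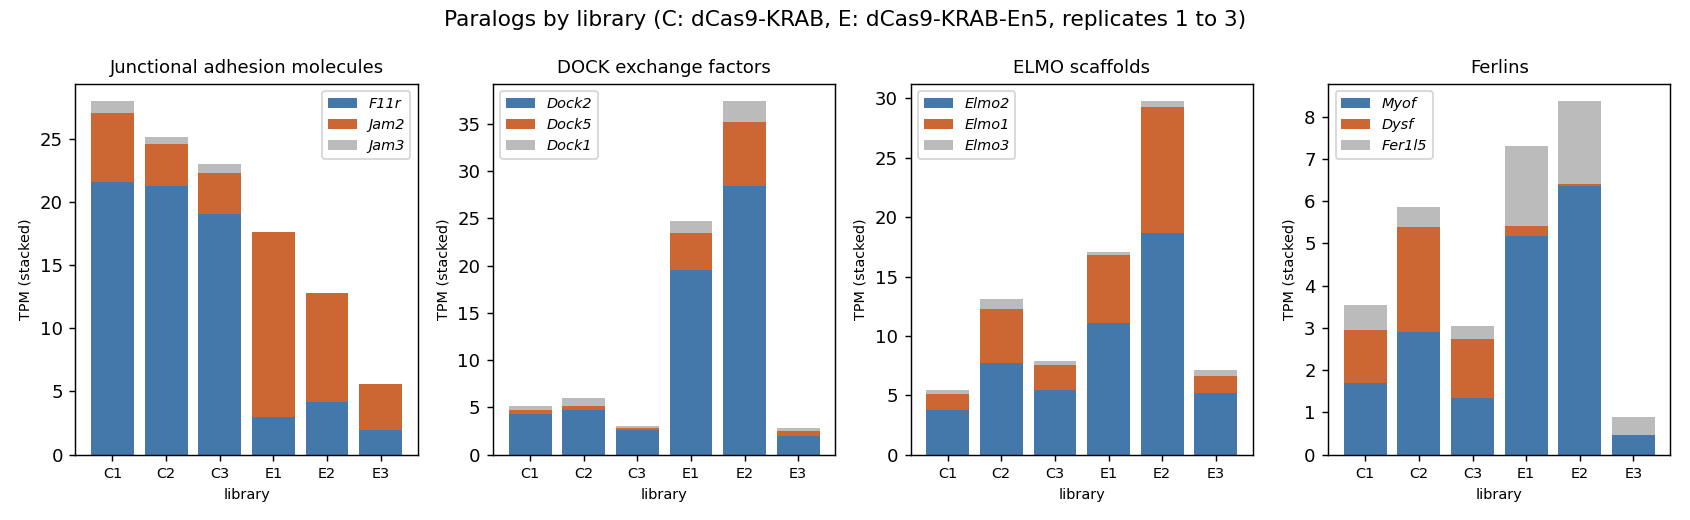
Stacked TPM (linear axes from 0) of 4 gene families in each library, with C1 to C3 the dCas9-KRAB and E1 to E3 the dCas9-KRAB-En5 replicates. *F11r* forms most of the junctional adhesion bar in C1 to C3 and *Jam2* in E1 to E3, *Dock2* is the largest DOCK segment in all 6 libraries, and *Dysf* is seen in C1 to C3 and hardly in E1 to E3.

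The engulfment genes *Dock1* and *Elmo1* were not called in either direction. DOCK1 activates the GTPase RAC1, ELMO1 is the scaffold that holds DOCK1 at the membrane, and the complex serves phagocytosis and migration as well as fusion. *Dock1* (chr7:134670654-135173639, plus strand) was at 0.498, 0.873 and 0.261 TPM in dCas9-KRAB and at 1.22, 2.21 and 0.314 TPM in dCas9-KRAB-En5. *Elmo1* (chr13:20090596-20608353, plus strand) was at 1.32, 4.49 and 2.11 TPM in dCas9-KRAB and at 5.70, 10.6 and 1.51 TPM in dCas9-KRAB-En5. For both genes dCas9-KRAB-En5 replicates 1 and 2 were above all control libraries and replicate 3 lay within the control range. The log2 fold change was 0.83 for *Dock1* (SE 0.61, 95% interval -0.50 to 2.16, edgeR adjusted p = 0.37). For *Elmo1* it was 0.81 (SE 0.53, 95% interval -0.35 to 1.97, edgeR adjusted p = 0.312). Without dCas9-KRAB-En5 replicate 3 the estimates were 1.05 and 1.02, with edgeR adjusted p of 0.127 and 0.0979.

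*Dock1* was a minor member of its family in these libraries. *Dock2*, the RAC activator of blood cells, made up 69.2% to 84.0% of the summed TPM of *Dock1*, *Dock2* and *Dock5* over the 6 libraries, and *Dock1* made up 4.94% to 14.6%. *Dock2* was at 4.25, 4.68 and 2.57 TPM in dCas9-KRAB and at 19.5, 28.4 and 1.95 TPM in dCas9-KRAB-En5, with a log2 fold change of 1.65 (SE 0.60, edgeR adjusted p = 0.0772), and it was called higher without dCas9-KRAB-En5 replicate 3 (2.02, edgeR adjusted p = 0.0019). *Dock5*, known from osteoclasts and also from myoblast fusion, rose by the main rule, with a log2 fold change of 2.94 (SE 0.62, edgeR adjusted p = 0.00926). Its TPM were 0.415, 0.428 and 0.228 in dCas9-KRAB and 3.94, 6.76 and 0.553 in dCas9-KRAB-En5. In TPM the third library of that group thus exceeded the controls only narrowly. In CPM scaled by the TMM factors that library was at 6.63, against 3.28, 2.85 and 1.82 in dCas9-KRAB replicates 1 to 3. Of the 6 fits without 1 library, *Dock5* was called in 1, the fit without dCas9-KRAB-En5 replicate 3. *Elmo1* made up 21.2% to 35.7% of the summed TPM of *Elmo1*, *Elmo2* and *Elmo3*. *Elmo2* had a log2 fold change of 0.77 (SE 0.43, edgeR adjusted p = 0.233) and *Elmo3* one of -0.45 (SE 0.81, edgeR adjusted p = 0.735).

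Macrophages also express these engulfment genes, and the macrophage markers are therefore set beside them. Of the 13 tested, 1 was higher in dCas9-KRAB-En5 (*Adgre1*, log2 fold change 2.68, SE 0.54, edgeR adjusted p = 0.00706) and none was lower, beside 1.52% and 4.67% of all genes. With the replicate block 2 were higher, the second being *Itgam* (log2 fold change 2.39, edgeR adjusted p = 0.00499, against 0.0151 without the block). Without dCas9-KRAB-En5 replicate 3, 3 were higher (*Adgre1*, *Itgam* and *Ptprc*) and 2 were lower (*Fcgr1* and *Aif1*), beside 11.7% and 14.0% of all genes. Their part in the values of *Dock1*, *Elmo1* and *Dock2* was not tested.

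*Myof* (chr19:37899036-38043577, minus strand) encodes myoferlin, a calcium-binding membrane protein of fusing myoblasts that is also made by endothelial and other cells. It was at 1.70, 2.91 and 1.35 TPM in dCas9-KRAB and at 5.18, 6.35 and 0.468 TPM in dCas9-KRAB-En5. The dCas9-KRAB-En5 group thus held both the highest values and the lowest one of all 6 libraries. The log2 fold change was 0.57 (SE 0.59, 95% interval -0.72 to 1.86, edgeR adjusted p = 0.538). Leaving out dCas9-KRAB-En5 replicate 3 gave 0.94 (edgeR adjusted p = 0.0646), and the replicate block gave 0.29 (edgeR adjusted p = 0.711). Its relative *Dysf*, dysferlin, a membrane repair protein of mature muscle fibres, differed in pattern, at 1.25, 2.49 and 1.39 TPM in dCas9-KRAB and 0.221, 0.0496 and 0 TPM in dCas9-KRAB-En5. *Dysf* fell by 4.60 on the log2 scale (SE 0.99, edgeR adjusted p = 0.00992). Of the summed TPM of *Dysf*, *Myof* and *Fer1l5*, *Dysf* made up 35.4% to 45.6% in the control libraries and at most 3.03% in the others.

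**Figure D3:**
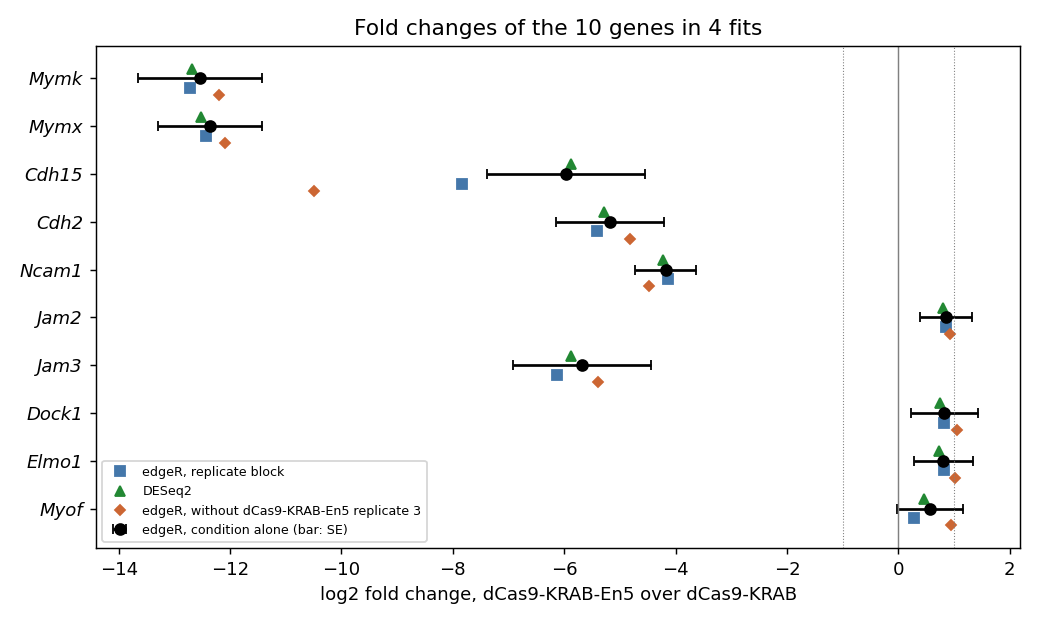
Log2 fold change of each gene, dCas9-KRAB-En5 over dCas9-KRAB, by edgeR with condition alone (black circles, bars SE), edgeR with the replicate block (blue squares), DESeq2 (green triangles) and edgeR without dCas9-KRAB-En5 replicate 3 (orange diamonds). Dotted lines mark -1 and 1, and *Cdh15* moves most between fits, from -5.87 to -10.49.

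In the order of mean TPM, which is a measure per gene length, the control group ran *Mymk*, *Mymx*, *Cdh15*, *Ncam1*, *Jam2*, *Elmo1*, *Myof*, *Cdh2*, *Jam3* and *Dock1*. The steps from *Mymk* to *Mymx*, *Mymx* to *Cdh15*, *Cdh15* to *Ncam1* and *Myof* to *Cdh2* were free of overlap between libraries, and all other neighbours overlapped. In dCas9-KRAB-En5 the order was *Jam2*, *Elmo1*, *Myof*, *Dock1*, *Cdh15*, *Ncam1*, *Mymk*, *Mymx*, *Cdh2* and *Jam3*, and every pair of neighbours overlapped. The 4 genes that lead the second order are the 4 that were not called in any fit. The 10 genes summed to between 714.9 and 1492 TPM in the control libraries and between 7.82 and 28.3 TPM in the others. With 3 libraries against 3, an exact permutation test cannot give a two-sided p below 0.1, and it gave that value for *Mymk*, *Mymx*, *Cdh15*, *Cdh2*, *Ncam1* and *Jam3*, and 0.2 to 0.4 for the other 4.

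The wider fusion and contact machinery was described with 7 gene lists, which hold 79 genes besides the 10. Of the 59 tested, 7 fell and 3 rose, beside the 4.67% and 1.52% of all genes, and the median log2 fold change was 0.32. The balance of directions depended on the fit: 8 fell and 5 rose with the replicate block, 9 fell and 8 rose with DESeq2, and 9 fell and 14 rose without dCas9-KRAB-En5 replicate 3, where 14.0% and 11.7% of all genes did. The 7 decreases of the full fit lay in the lists of cadherins, ferlins and contact receptors. Among cadherins and catenins, 2 of 6 tested fell and none rose (median -1.38): *Cdh13*, the membrane-anchored T-cadherin, from 11.4 ± 3.95 to 1.30 ± 0.303 TPM (SD, n = 3 each; log2 fold change -3.20, SE 0.47, edgeR adjusted p = 0.0012), and *Jup*, plakoglobin, which links cadherins to the cytoskeleton (-3.67, SE 0.69, edgeR adjusted p = 0.00506). *Cdh11*, a relative of *Cdh2*, had a log2 fold change of -2.62 (SE 1.04) that missed the cutoff (edgeR adjusted p = 0.1). Among ferlins and membrane trafficking genes, 2 of 5 fell and none rose (median -0.87), namely *Dysf* and *Cav3*, the muscle caveolin. *Cav3* held 355 counts in the control group and 1 in the other, a depth-scaled count ratio of 224.9 (counting interval 40.1 to 8906). Its edgeR adjusted p was 0.00172. Both *Dysf* and *Cav3* passed the low-count filter through the dCas9-KRAB libraries, where they were higher, so these calls are a description of the list.

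Immunoglobulin-type and other contact receptors moved in both directions, with 3 of 16 tested lower and 2 higher (median -0.44), 3 and 4 with the replicate block, and 4 and 5 without dCas9-KRAB-En5 replicate 3. The block added *Nectin1* (log2 fold change 2.26, edgeR adjusted p = 0.00667, against 0.0221 without the block) and *Nectin3* (1.94, edgeR adjusted p = 0.00815, against 0.0201), which encode nectins, adhesion molecules of adherens junctions. The decreases of the full fit were *F11r*, *Tjp1*, the tight junction scaffold ZO-1 (log2 fold change -2.89, SE 0.62, edgeR adjusted p = 0.0098), and *Vcam1*, a ligand of integrin alpha 4 that also serves as a myoblast marker here (-3.46, SE 0.64, edgeR adjusted p = 0.00496). Its increases were *Mcam*, the adhesion molecule CD146 (4.16, SE 0.60, edgeR adjusted p = 0.000967), and *Alcam*, CD166 (2.98, SE 0.55, edgeR adjusted p = 0.00469). *Mcam* was at 0.286, 0.176 and 0.307 TPM in dCas9-KRAB and at 5.31, 8.86 and 2.78 TPM in dCas9-KRAB-En5, so each library of the second group exceeded each of the first.

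The actin and GTPase machinery was measured in full, with 18 of 18 genes tested, 1 higher (*Dock5*) and none lower, and a median of 0.71. With the replicate block *Nckap1*, a subunit of the actin-regulating WAVE complex, was also called, as lower (log2 fold change -3.67, edgeR adjusted p = 0.00428, against 0.0538 without the block). *Nckap1* too passed the filter through the dCas9-KRAB libraries. Without dCas9-KRAB-En5 replicate 3, 6 of these genes were higher and 1 was lower. Phosphatidylserine recognition and exposure, the eat-me signal that fusing cells also display, had 5 genes tested and none called (median 0.53), and 1 higher without dCas9-KRAB-En5 replicate 3. Its most abundant members were *Anxa5* (log2 fold change 1.10, SE 0.45, edgeR adjusted p = 0.107) and *Anxa1* (-0.42, SE 0.49, edgeR adjusted p = 0.58). Of 9 macrophage and osteoclast fusion genes tested, none was called (median 0.89), and 2 were higher without dCas9-KRAB-En5 replicate 3. The most abundant of them, the immune signalling adaptor *Tyrobp* and its partner receptor *Trem2*, were at 1048 to 1727 and 73.4 to 96.6 TPM in dCas9-KRAB and at 1221 to 2547 and 52.7 to 143.7 TPM in dCas9-KRAB-En5. Neither was called, and the sign of both turned without dCas9-KRAB-En5 replicate 3, from a log2 fold change of 0.56 to -0.48 for *Tyrobp* and from 0.32 to -1.04 for *Trem2*, the latter also with the replicate block (-0.17). The envelope-derived fusogens of placenta could not be tested, since *Syna* did not exceed 0.186 TPM and *Synb* was listed in no library.

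Of these 10 calls among the list genes, *Cdh13* and *F11r* were made without any 1 of the 6 libraries. The number of calls in the lists was 2, 4 and 4 without dCas9-KRAB replicate 1, 2 or 3, and 7, 6 and 23 without dCas9-KRAB-En5 replicate 1, 2 or 3. A list with no call in the full fit is therefore not shown to be without change.

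**Figure D4:**
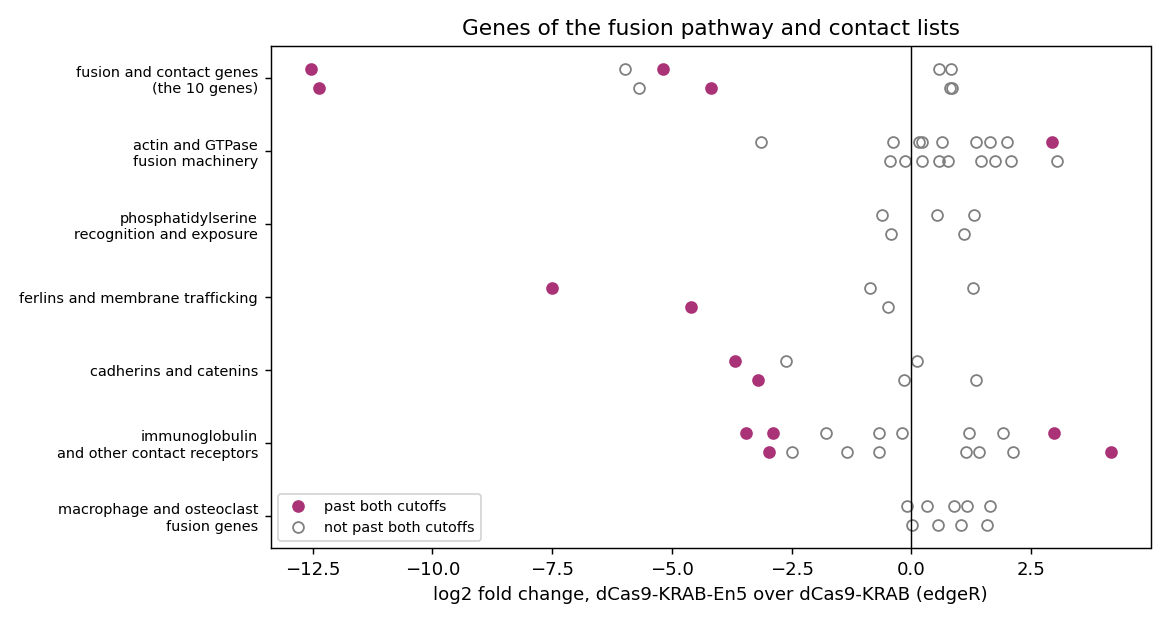
Log2 fold change, dCas9-KRAB-En5 over dCas9-KRAB (edgeR, condition alone), of the 10 genes and of the tested genes of 6 lists, 1 circle per gene with filled circles past both cutoffs. The lowest filled circles are *Mymk* and *Mymx*, the contact receptor list holds filled circles on both sides of 0, and in the actin and GTPase list the only filled circle is *Dock5*.

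Reads shared between similar genes could affect few of the values of the 10 genes. At most 0.0910% of the 50-base words of any of the 10 genes occurred in another gene's exons. Exons of *Ncam1*, *Jam3* and *Elmo1* overlap antisense genes on the other strand, which held at most 1, 2 and 0 counts in any library. Exons of some list genes overlap expressed genes on the other strand, such as those of *Fer1l5* with *Lman2l*, which held 394 to 4367 counts per library. The setting for strand in the counting is not given in the sources used here. The effect of such overlaps on the values was not tested.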

How the data were processed

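Polyadenylated RNA of C2C12 cells was sequenced as paired ends with a NEBNext Ultra kit. The authors aligned reads to GRCm38 with HISAT2 2.2.1, used featureCounts to obtain raw counts, and deposited these counts beside TPM that the authors computed per library. The annotation release and strand setting are not given in the sources used here. Genes absent from a library's file were taken as 0. Symbols of 23155 of the 23231 genes, coordinates and exons came from GENCODE for GRCm38, promoters from RefSeq GRCm38.p6, and guide sequences from the study's supplementary table.

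Counts were tested with edgeR 4.0.16 (R 4.3.3, TMM, filterByExpr with minimum count 10 and minimum total 15, glmQLFit and glmQLFTest, condition alone). SE is the fold change over the square root of F, and intervals of fold changes are 95%. TPM were used for levels. Scripts were tested on simulated data. Alternatives were DESeq2 1.42.0, other scalings and filters, limma 3.58.1 on log2 TPM with a pseudocount of 1 or 0.1, a looser adjusted p, the replicate block and leaving out each library. Depth was 31831093 to 73988425 counts per library.

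Replicate numbers 1 to 3 come from the labels. Libraries with the same number deviated together from their group means (correlations across genes 0.325, 0.331 and 0.418). For different numbers the correlations were -0.491 to -0.0807. Deviations within a group cancel, so positive same-number values push the others negative, and the latter are no separate evidence of pairing. The fit reported used condition alone, so its SE, intervals and adjusted p ignore any pairing. The blocked fit is an alternative, given where it changes a call. Chi-square per degree of freedom between replicates was 110.2 to 874.6, so no library was a duplicate.

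The 10 genes and all lists (7 of pathways, and markers of myoblasts, myotubes, macrophages and fibroblasts) were chosen with earlier results of these data known. Named besides the 10 genes were *Myog*, their nearest paralogs, up to 5 called genes of smallest adjusted p per pathway list or else the 2 of highest mean TPM, and the 3 genes nearest to *Mymk* and to *Mymx*. *Actb* was named by the same rule as a control (log2 fold change -0.88, SE 0.50, edgeR adjusted p = 0.239). *Adgre1*, the other marker genes and the genes called with the block or without 1 library alone were named after their values were seen.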

Additional observations from a re-analysis of the deposited data

How the results depend on the processing

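None of the 10 genes changed direction under any alternative, whereas the balance of lower and higher calls in the 7 lists went from 7 and 3 to 8 and 8 at an adjusted p of 0.05 and to 9 and 14 without dCas9-KRAB-En5 replicate 3. Over all genes, 890 were called in the fit reported, and the count was 2390 with DESeq2, 586 with total counts only, 2198 without the low-count filter, 544 with at least 10 counts in every library, 514 by limma on log2(TPM + 1), 2449 at an adjusted p of 0.05, 1543 with the replicate block (pairing by number), and from 222 (without dCas9-KRAB replicate 1) to 3921 (without dCas9-KRAB-En5 replicate 3) when 1 library was left out. Of the 10 fusion and contact genes 4 were called, against 6 with the replicate block, 3 to 6 when 1 library was left out, and 1 with at least 10 counts in every library, a filter under which *Mymk*, *Mymx*, *Cdh15*, *Cdh2* and *Jam3* were not tested. The 10 calls in the 7 lists became 17 with DESeq2, 6 with total counts only, 16 without the filter, 2 and 5 by limma on log2(TPM + 1) and log2(TPM + 0.1), 16 at an adjusted p of 0.05, 13 with the block, and 2 to 23 without 1 library. The block changed the calls of *Cdh15* and *Jam3* among the 10 genes, of *Nckap1*, *Nectin1* and *Nectin3* in the pathway lists and of *Itga7*, *Itgam* and *Col1a2* in the marker lists, and of no other gene of these lists. *Mymk* and *Mymx* were called under all 15 alternatives that tested them. *Cdh15* came inside the cutoffs in 9 and *Jam3* in 7 of 15, and *Cdh2* left them in 4. *Ncam1* left them in 1 of 16, limma on log2(TPM + 1) (adjusted p = 0.0131). *Jam2*, *Dock1*, *Elmo1* and *Myof* stayed outside in all 16. The cause of these moves was not tested beyond the filter. Depth limits *Jam3*, *Mymk* and *Mymx* in dCas9-KRAB-En5, where 3, 13 and 4 reads were counted in all.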
